A study of Mus musculus with 10 samples.

Results

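The immunoglobulin heavy and light chain segments are the germline pieces from which antibody genes are built, and B cells and plasma cells transcribe the assembled genes. Which cells gave the counts in these whole tumours was not tested. The segments were taken from the deposited count table as every gene whose mouse symbol names a heavy, kappa or lambda variable segment or constant region. This gave 361 of 55335 genes. Of these, 185 were heavy variable segments and 8 heavy constant genes on chromosome 12, 160 were kappa variable segments and 1 the kappa constant gene on chromosome 6, and 3 lambda variable segments and 4 lambda constant genes lay on chromosome 16. The annotation calls 130 of them pseudogenes. Joining segments and the diversity segments do not match the symbols and are not among the 361.

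RNA sequencing was done on 10 whole mammary tumours, 5 named DOX_pos and 5 named DOX_neg. All of them grew from mammary epithelial cells of virgin Wap-Myc mice, in which the Wap promoter of the pregnant and lactating gland drives the Myc oncogene, and all cells had been transduced with the lentiviral construct pIND21-HPN (multiplicity of infection 10) for doxycycline-inducible hepsin, a transmembrane serine protease. The cells were placed in the mammary fat pads of recipients aged 3 weeks, Myc was switched on at the age of 8 weeks by 2 pregnancies, and tumours were collected at 1 cm. Recipients of DOX_pos tumours drank doxycycline at 2 mg/ml in 5% sucrose from 3 days after transplantation, and those of DOX_neg tumours drank sugar water. The strain background is given as FVB, and neither the age at collection nor the immune status of the recipients is stated in the labels. Because DOX_neg and DOX_pos tumours alike carry pIND21-HPN, effects of the drug and of hepsin cannot be told apart. The labels do not say whether every tumour came from its own recipient, so p-values measure only the spread between these tumours.

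Each B cell joins 1 heavy variable segment to diversity and joining segments, and 1 light variable segment of the kappa or lambda locus to a joining segment. A clone and its descendants therefore use the same variable segments, which acquire point mutations in germinal centres. The first heavy chains are IgM and IgD, and class switching replaces their constant region with that of an IgG, IgE or IgA, while the variable part stays. In the mammary gland of pregnancy and lactation, IgA plasma cells settle under the attraction of the chemokine Ccl28, and the receptor encoded by Pigr carries their IgA, held together by the J chain of Jchain, into milk.

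The germline sequences of 4 variable segments are shown because the light and heavy chain results turn on them. Ighv8-8 (chr12:115294062-115294361, minus strand) and Igkv8-27 (chr6:70171809-70172108, minus strand) led the heavy and the kappa variable counts of tumour DOX_pos 5, Igkv14-111 (chr6:68256572-68256869, plus strand) led the kappa variable counts of the other 9 tumours, and Igkv1-110 (chr6:68270968-68271267, plus strand) is the nearest variable segment to Igkv14-111. The coordinates are those of GRCm38, and the letters are the last coding bases, up to 300, of each segment's transcript in GENCODE M21, written 5′ to 3′. Capitals run from the codon of the last in-frame cysteine, after which the third complementarity-determining region begins, to the end of the germline segment.
Ighv8-8: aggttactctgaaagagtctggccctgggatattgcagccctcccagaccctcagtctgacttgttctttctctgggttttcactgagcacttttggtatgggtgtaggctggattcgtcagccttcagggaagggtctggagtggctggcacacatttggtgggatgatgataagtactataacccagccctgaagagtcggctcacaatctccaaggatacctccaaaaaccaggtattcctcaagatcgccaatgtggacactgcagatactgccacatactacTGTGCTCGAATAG
Igkv8-27: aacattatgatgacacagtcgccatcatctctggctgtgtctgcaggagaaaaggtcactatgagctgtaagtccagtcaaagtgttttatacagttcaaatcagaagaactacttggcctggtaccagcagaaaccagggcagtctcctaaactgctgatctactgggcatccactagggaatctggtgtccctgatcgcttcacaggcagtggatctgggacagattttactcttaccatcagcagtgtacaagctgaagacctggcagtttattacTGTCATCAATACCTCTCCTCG
Igkv14-111: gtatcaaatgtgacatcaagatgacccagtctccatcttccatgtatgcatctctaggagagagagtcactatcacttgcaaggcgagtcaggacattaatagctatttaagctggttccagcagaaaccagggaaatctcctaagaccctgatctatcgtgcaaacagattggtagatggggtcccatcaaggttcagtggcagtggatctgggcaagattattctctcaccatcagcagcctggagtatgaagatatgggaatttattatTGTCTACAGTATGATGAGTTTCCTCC
Igkv1-110: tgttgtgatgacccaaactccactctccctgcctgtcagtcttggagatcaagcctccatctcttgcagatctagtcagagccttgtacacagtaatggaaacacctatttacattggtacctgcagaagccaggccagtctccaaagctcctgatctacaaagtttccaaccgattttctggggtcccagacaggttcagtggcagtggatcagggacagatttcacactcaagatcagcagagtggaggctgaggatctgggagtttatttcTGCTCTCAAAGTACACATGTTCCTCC
Reads of near-identical segments can be shared, so windows of each segment were searched in all GENCODE transcripts. The closest relatives of the 4 segments were sought only among variable segments of the same chain with annotated coding bases. The closest relative of Ighv8-8 was Ighv8-5, at 96.2% identity with 12 differing positions over the aligned coding bases, and that of Igkv1-110 was Igkv1-117, at 96.8% with 10 differing positions. Igkv8-27 was 88.3% identical to Igkv8-30, and Igkv14-111 was 90.9% identical to Igkv14-126. All windows of 75 bases, the read length, were found in no other transcript for Igkv8-27 and Igkv14-111, against 82.7% of windows for Ighv8-8 and 68.8% for Igkv1-110. The heavy and kappa constant genes had at least 99.2% such windows, so their counts can be told apart better than those of many variable segments. GRCm38 is the genome of C57BL/6J, so a segment name below means the reference segment to which reads of FVB tumours were assigned.

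Immunoglobulin transcripts were scarce. Of the 361 segments, 135 had at least 1 read count in any tumour, 226 had none, 27 reached 10 counts over all tumours, and 4 were counted in all 10 tumours. All 4474 immunoglobulin counts together came from libraries of 14256948 to 39358457 counts, and they made up between 0.000194% and 0.0185% of a library. Tumours DOX_neg 1 to 5 held 191, 126, 35, 479 and 219 immunoglobulin counts, and DOX_pos 1 to 5 held 85, 75, 253, 64 and 2947. Tumour DOX_pos 5 alone held 65.9% of all immunoglobulin counts, and the 4 highest genes (Ighg1, Igkc, Igha and Ighm) held 69.9%. The library of DOX_pos 3 was the deepest and every other total was at most 20469533, and ribosomal loci took 24.5 to 33.3% of counts. Mouse Hpn was read at 21.7 ± 4.69 CPM in DOX_neg and 31.7 ± 8.55 CPM in DOX_pos tumours (SD, n = 5 each), with an edgeR adjusted p of 0.247. Whether transcripts of the pIND21-HPN construct were counted under this gene is not stated, so its level cannot show how far hepsin was induced. Epithelial markers of the labelled tissue were well read in every tumour, with Epcam at 241 to 326 CPM and Krt8 at 280 to 479 CPM.

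Summed over all segments, DOX_pos and DOX_neg tumours did not separate, and DOX_pos 5 stood far above the rest. In CPM, which are counts per 1000000 of the library total after TMM scaling, the sums were 11.8, 6.21, 2.11, 27.7 and 10.9 in DOX_neg 1 to 5. They were 4.59, 3.75, 6.28, 4.58 and 178 in DOX_pos 1 to 5. The groups overlapped: 4 DOX_pos tumours lay inside the range of DOX_neg tumours, and DOX_pos 5 lay above it. The means of 11.7 ± 9.75 and 39.4 ± 77.5 CPM (SD, n = 5 each) differed in one direction and the medians of 10.9 and 4.59 CPM in the other. On the log2(CPM + 1) scale the difference of means was 0.20 (two-sided exact permutation p = 0.889, adjusted over 7 sums p = 1, smallest possible p 0.00794). Without DOX_pos 5 it was -0.80 (exact permutation p = 0.270, adjusted 0.556). In bulk RNA such as this, fewer antibody-producing cells and less antibody RNA per cell cannot be told apart.

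**Figure D1:**
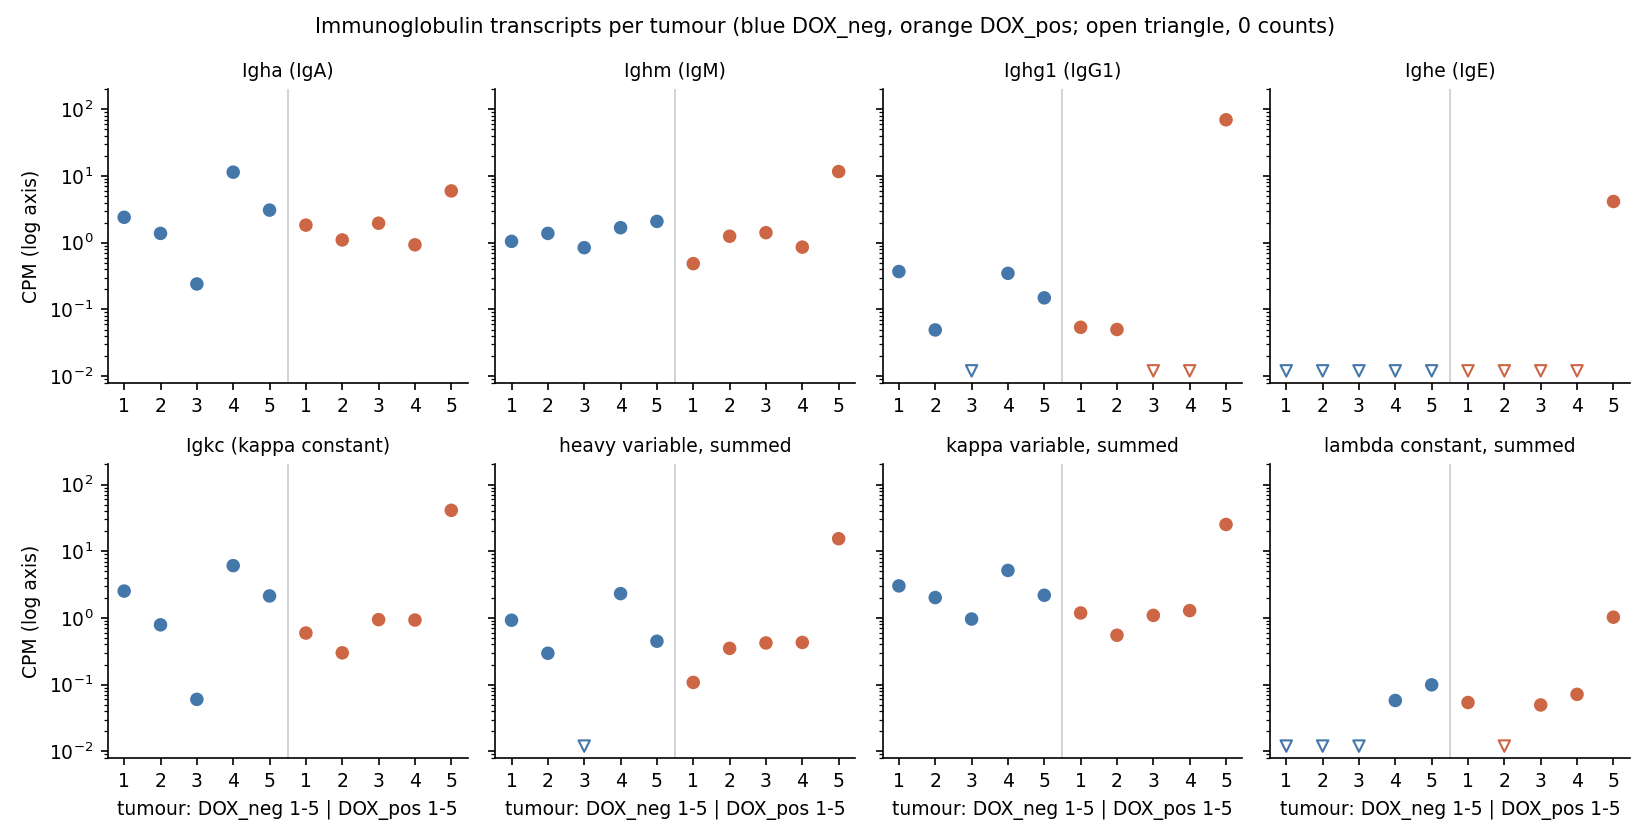
Levels of 4 heavy constant genes, Igkc and 3 summed classes in each tumour, in CPM on a log axis, with DOX_neg tumours in blue, DOX_pos tumours in orange and open triangles for 0 counts. DOX_pos 5 is the highest tumour in every panel except Igha, where DOX_neg 4 is higher at 11.4 CPM against 5.98.

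The same held class by class. The summed heavy variable segments differed by 0.41 between the groups on the log2(CPM + 1) scale, the kappa variable segments by -0.03, the lambda variable segments by 0.17, the heavy constant genes by 0.31, Igkc by 0.23 and the lambda constant genes by 0.21. Their exact permutation p-values ran from 0.325 to 1, and every adjusted p was 1. Leaving out DOX_pos 5 turned the heavy variable (-0.32), heavy constant (-0.63), Igkc (-0.70) and lambda variable (-0.01) differences downward and took the kappa variable difference to -0.77 (exact permutation p = 0.0476, adjusted 0.333). The plot of immunoglobulin transcripts per tumour shows the class sums beside the constant genes.

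Igha, the heavy chain of IgA, was counted in all 10 tumours, as were Ighm and Igkc. It had 39, 28, 4, 197 and 62 counts in DOX_neg 1 to 5, and 34, 22, 79, 13 and 99 counts in DOX_pos 1 to 5. DOX_neg 4 was the highest tumour and DOX_neg 3 the lowest, and the DOX_pos tumours lay between them. Igha averaged 3.70 ± 4.44 CPM in DOX_neg and 2.36 ± 2.07 CPM in DOX_pos tumours (SD, n = 5 each), a log2 fold change of -0.65 (SE 0.79, edgeR adjusted p = 0.697). Without DOX_neg 4 the log2 fold change was 0.39 (edgeR adjusted p = 0.853).

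Ighm, the heavy chain of IgM, had 17, 28, 14, 29 and 42 counts in DOX_neg 1 to 5 and 9, 25, 57, 12 and 193 in DOX_pos 1 to 5. Its levels were 0.486 to 2.09 CPM in 9 tumours and 11.7 CPM in DOX_pos 5. The log2 fold change was 1.12 (SE 0.78, edgeR adjusted p = 0.486), and without DOX_pos 5 it was -0.45 (adjusted p = 0.592). Ighd, the heavy chain of IgD, which naive B cells make from the same transcript as IgM, had 0 to 7 counts in any tumour and 27 in all.

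Igkc, the constant region shared by all kappa light chains, had 41, 16, 1, 105 and 43 counts in DOX_neg 1 to 5 and 11, 6, 38, 13 and 680 counts in DOX_pos 1 to 5. DOX_pos 5 and DOX_neg 4 were highest and DOX_neg 3 was lowest, as for the sum of all segments, of which Igkc is itself a large part (954 of 4474 counts). The group means of 2.32 ± 2.33 and 8.77 ± 18.1 CPM (SD, n = 5 each) gave a log2 fold change of 1.91 (SE 1.34, edgeR adjusted p = 0.489). Without DOX_pos 5 the log2 fold change was -1.71 (adjusted p = 0.420), so the direction rested on that tumour.

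The lambda chains were close to absent from the counts. The 4 lambda constant genes had 24 counts in all and the 3 lambda variable segments 19, of which DOX_pos 5 held 17 and 15. Iglc2 reached 10 counts and Iglv1 reached 9 in DOX_pos 5, and Iglc4 had none in any tumour. Lambda made up 1.08 ± 1.93% of light constant counts in DOX_neg and 4.58 ± 3.41% in DOX_pos tumours (SD, n = 5 each; exact permutation p = 0.0952, adjusted over 9 shares p = 0.286). Outside DOX_pos 5 no tumour had more than 2 lambda constant counts.

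Only 4 of the 361 segments had enough reads for the filter of the test across genes: Igha, Ighm, Igkc and Igkv14-111. Log2 fold changes were positive for 2 of them and negative for 2, and edgeR's quasi-likelihood test called 0 of the 4 at an adjusted p under 0.05, where it called 0% of all 16167 genes tested. At an unadjusted p under 0.05, edgeR called 1 of the 4, Igkv14-111, against 16% of all genes (8.2% higher and 7.83% lower). DESeq2 also called Igkv14-111 alone, against 2.12% of genes (0.796% lower in DOX_pos), and gave no p-value for Igkc and Ighm.

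Igkv14-111, a kappa variable segment (chromosome 6, 68256389 to 68256869, plus strand), had lower values in DOX_pos tumours but did not pass edgeR's test adjusted over all genes. Its counts were 26, 27, 11, 34 and 21 in DOX_neg 1 to 5 and 6, 8, 19, 9 and 5 in DOX_pos 1 to 5. Its levels were 1.60, 1.33, 0.662, 1.97 and 1.04 CPM in DOX_neg 1 to 5, and 0.324, 0.400, 0.472, 0.644 and 0.302 CPM in DOX_pos 1 to 5. All 5 DOX_pos tumours lay below all 5 DOX_neg tumours, as was so for 1.13% of all genes tested (1.82% had every DOX_pos tumour above), with a narrow gap between DOX_pos 4 at 9 counts and DOX_neg 3 at 11. With scaling by library size only, DOX_pos 4 (0.631 CPM) lay above DOX_neg 3 (0.610 CPM) and 4 DOX_pos tumours were below all DOX_neg tumours. The means were 1.32 ± 0.503 and 0.428 ± 0.138 CPM (SD, n = 5 each), a fold of 0.327. The log2 fold change was -1.61 (SE 0.32), with an edgeR p of 0.000351 before and 0.196 after adjustment over all genes. DESeq2 gave an adjusted p of 0.0104, and edgeR without DOX_neg 3 gave 0.0430.

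In DOX_pos 5 the level of Igkv14-111 parted from that of the other kappa segments, while within the DOX_neg group both were highest in DOX_neg 4 and lowest in DOX_neg 3. Among DOX_pos 1 to 4, Igkv14-111 was lowest in DOX_pos 1 (0.324 CPM), where the other kappa segments were highest (0.864 CPM). DOX_pos 2 to 4 ranked alike in both. Igkv14-111 was the highest kappa variable segment in 9 tumours, with 27.3% of kappa variable counts in DOX_pos 1 at the lowest and 72.7% in DOX_pos 2 at the highest. In DOX_pos 5, where Igkc was highest, it held 1.20% (5 of 417 counts, exact 95% interval 0.390 to 2.78%). In DOX_neg 3 it had 11 counts beside 1 count of Igkc and 5 of all other kappa variable segments. In DOX_pos 5 it had 5 counts beside 680 of Igkc and 412 of the other kappa variable segments. Within 20000 bases the annotation has Igkv1-110, 13616 bases away on the same strand with 22 counts over all tumours, and the small nucleolar RNA gene Gm25436, 525 bases away on the minus strand with 0 counts.

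Tumour DOX_pos 5 differed from the others in the classes of its heavy chains as well as in their amount. The following values describe 1 tumour and carry no test, and their intervals cover counting error only. Ighg1, the heavy chain of IgG1, had 1153 counts in DOX_pos 5, with 6, 1, 0, 6 and 3 counts in DOX_neg 1 to 5 and 1, 1, 0 and 0 in DOX_pos 1 to 4. That is 69.6 CPM against 0.370 CPM in DOX_neg 1, the next highest tumour, a ratio of 188 (95% interval 86.2 to 514). Ighe, the heavy chain of IgE, had 69 counts in DOX_pos 5 and 0 in the other 9 tumours, so it was at least 19.4-fold higher than the largest floor of 3 counts per library (0.215 CPM).

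The other classes stood less far from the next tumour. Igkc was 6.75 times the next highest tumour (5.49 to 8.38), Ighm was 5.58 times (3.98 to 7.99), and Igha was 0.524 of its level in DOX_neg 4 (0.407 to 0.670). Ighg2b had 24 counts in DOX_pos 5 and 0 to 11 elsewhere, Ighg2c had 15 and 0 to 11, and Ighg3 had 3 and 0 to 1. Per kilobase of exon, the levels in DOX_pos 5 were 77.2 CPM for Igkc, 41.8 for Igkv8-27, 29.5 for Ighv8-8, 26.9 for Ighg1, 6.18 for Ighm, 2.63 for Ighe and 2.24 for Igha.

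As a share of heavy constant counts, Ighg1 made up 73.8% (exact 95% interval 71.5 to 75.9%) of 1563 counts in DOX_pos 5, Ighm 12.3%, Igha 6.33% and Ighe 4.41%. In the other 9 tumours Igha and Ighm together were the main classes. Igha held 81.1% (75.6 to 85.8%) of 243 heavy constant counts in DOX_neg 4 and 69.4% of 49 in DOX_pos 1, while Ighm held 77.8% of 18 in DOX_neg 3. The 4 IgG genes held 33.7% of 86 counts in DOX_neg 1 and 76.5% in DOX_pos 5, and 10.2% or less in the other 8 tumours.

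**Figure D2:**
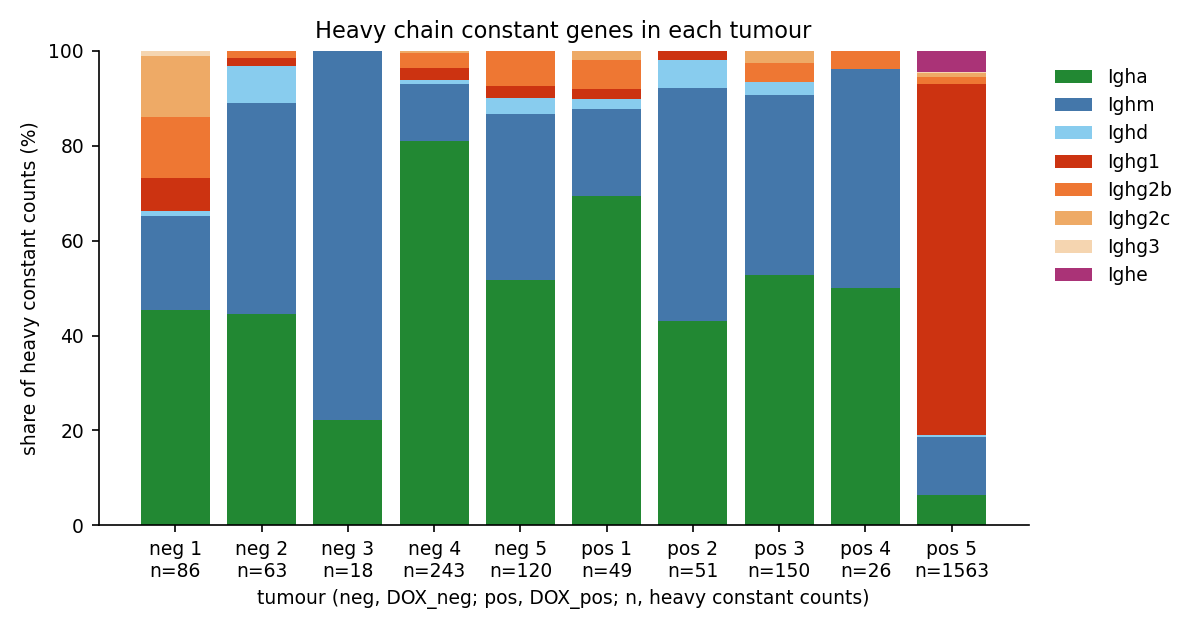
Share of each heavy constant gene in the heavy constant counts of each tumour, in percent, with the number of counts (n) under each bar. Igha (green) and Ighm (blue) fill most of the bar in 9 tumours, and Ighg1 (red) fills 73.8% of the bar of DOX_pos 5.

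Between the groups, the class shares did not differ beyond their spread. IgA made up 49.0 ± 21.1% of heavy constant counts in DOX_neg and 44.3 ± 23.3% in DOX_pos tumours (exact permutation p = 0.730, adjusted 0.786). IgM made up 37.8 ± 25.7% and 32.8 ± 16.5% (p = 0.786 by exact permutation, adjusted 0.786), and the IgG classes 10.6 ± 13.4% and 19.8 ± 31.8% (exact permutation p = 0.659, adjusted 0.786), each SD over n = 5. Variable segments took 33.7 ± 8.40% of all immunoglobulin counts in DOX_neg and 27.6 ± 5.85% in DOX_pos tumours (exact permutation p = 0.254, adjusted 0.571).

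The variable segments of DOX_pos 5 were dominated by a single heavy and a single kappa segment. Ighv8-8 had 175 counts there and 0 to 3 in each other tumour, which made 68.6% (exact 95% interval 62.5 to 74.3%) of 255 heavy variable counts in DOX_pos 5. Igkv8-27 had 249 counts there, 1 in DOX_neg 4 and 0 in the other 8 tumours, which made 59.7% (54.8 to 64.5%) of 417 kappa variable counts. The ratios to the next highest tumour were 60.8 (95% interval 20.5 to 298) for Ighv8-8 and 260 (46.2 to 10296) for Igkv8-27, on 3 counts and 1 count in that tumour. These are the segments whose germline sequences are printed above.

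Behind these leaders, the counts of DOX_pos 5 spread over many segments. A count was found there for 31 heavy variable and 41 kappa variable segments, and 22 of the 361 segments were counted in that tumour only. Among kappa segments, Igkv5-43 had 19 counts, Igkv3-4 had 17 and Igkv1-135 had 14 in DOX_pos 5, against at most 2 in each other tumour. Among heavy segments, Ighv5-15 had 12 counts there and 0 elsewhere, and Ighv5-17 and the pseudogene Ighv3-2 had 7 each there and at most 3 in each other tumour.

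In the other 9 tumours the heavy variable counts were too few to show a leading segment. They came to 15, 6, 0, 40 and 9 in DOX_neg 1 to 5 and to 2, 7, 17 and 6 in DOX_pos 1 to 4, and no heavy segment there had more than 3 counts in a tumour. The highest segment held 14.9 ± 6.16% of heavy variable counts in DOX_neg tumours (SD, n = 4, DOX_neg 3 having none) and 38.5 ± 21.7% in DOX_pos tumours (SD, n = 5; exact permutation p = 0.0714, adjusted 0.286). A share is large by construction where counts are few, as in DOX_pos 1, where 1 of 2 counts is 50%. Simpson's index of concentration in percent, corrected for the number of counts, was 47.6 in DOX_pos 5 and between 0 and 6.67 in the other 8 tumours with a value (exact permutation p between groups = 0.389, n = 4 and 5). The highest 5 segments held 60.2 ± 19.5% of heavy variable counts in DOX_neg tumours (SD, n = 4) and 85.2 ± 16.9% in DOX_pos tumours (SD, n = 5; exact permutation p = 0.0794, adjusted 0.286).

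For kappa, the highest segment held 54.7 ± 12.7% in DOX_neg and 50.6 ± 17.1% in DOX_pos tumours (SD, n = 5 each; exact permutation p = 0.667, adjusted 0.786). The highest 5 held 77.4 ± 16.2% and 74.3 ± 17.2% (SD, n = 5 each; exact permutation p = 0.770, adjusted 0.786). The leader was Igkv14-111 in all 5 DOX_neg tumours and in 4 of 5 DOX_pos tumours, and Igkv8-27 in DOX_pos 5.

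**Figure D3:**
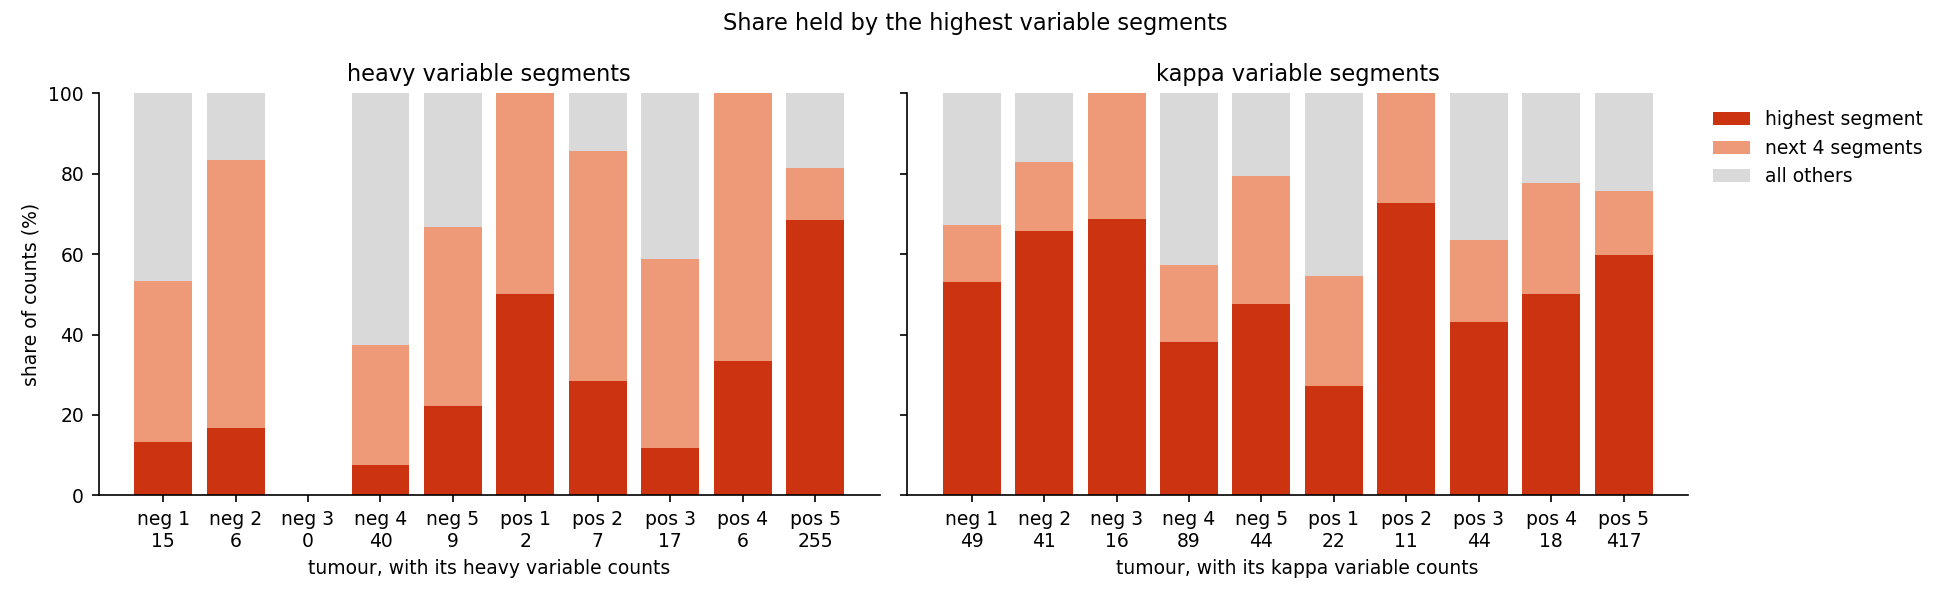
Share of heavy (left) and kappa (right) variable counts held in each tumour by the highest segment, the next 4 and all others, in percent, with the number of counts under each bar. In DOX_pos 5 the highest segment holds 68.6% of 255 heavy and 59.7% of 417 kappa counts, and the bars of other tumours rest on 0 to 40 heavy and 11 to 89 kappa counts.

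Of the 332 segments not covered by the rule for named genes, 107 had a count, and none had more than 17 over all tumours.

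Transcripts of the cells that make antibody were compared with the segments. Jchain, the joining chain of IgA and IgM secreted by plasma cells, had 15, 10, 0, 45 and 18 counts in DOX_neg 1 to 5 and 7, 6, 23, 4 and 127 in DOX_pos 1 to 5. The tumours ranked by Jchain nearly as they did by summed immunoglobulin, with DOX_pos 5 and DOX_neg 4 highest and DOX_neg 3 lowest. Over the 10 tumours, log2(CPM + 1) of Jchain and of the immunoglobulin sum had a Pearson r of 0.996 and a Spearman rho of 0.988, with permutation p-values of 1e-05, the smallest that the resamples can give, and 2e-05. Without DOX_neg 4 and DOX_pos 5, r was 0.99. Jchain was singled out after its values were seen.

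**Figure D4:**
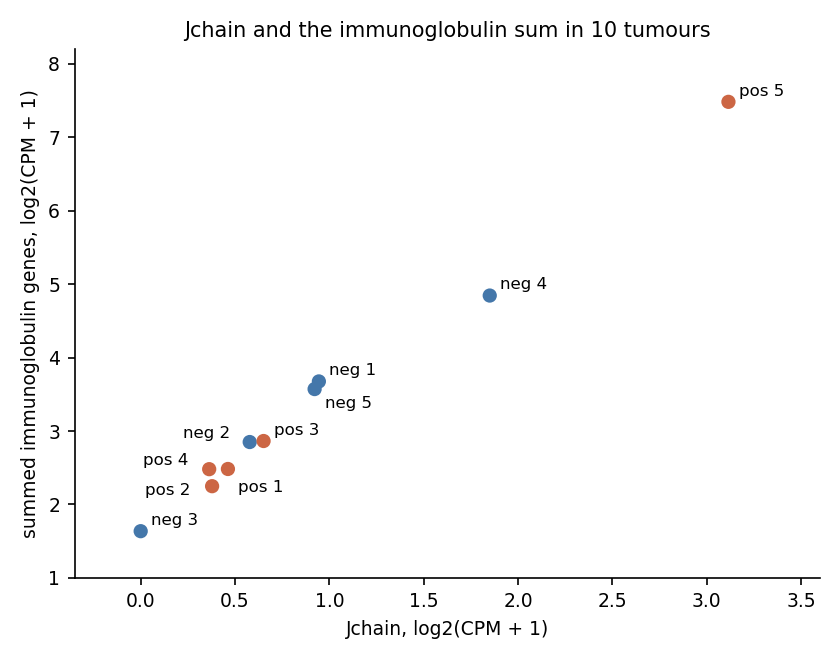
Jchain (horizontal axis) against the summed immunoglobulin segments (vertical axis) in each tumour, both as log2(CPM + 1), with DOX_neg tumours in blue and DOX_pos tumours in orange. The 10 points lie close to a rising line, with a Pearson r of 0.99 also without the highest pair, DOX_neg 4 and DOX_pos 5.

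Some defining B and plasma cell markers, named after their values were seen, were at or near 0. Ms4a1 (CD20), a surface protein of B cells, had 0 to 4 counts per tumour, and Mzb1 and Tnfrsf17 (BCMA), of plasma cells, had 0 to 4 and 0 to 1. Other genes of the same lists were counted in every tumour. Among B cell genes, Cd22 had 37 to 152 counts, Cd37 had 27 to 121 and Blnk had 160 to 672, and among plasma cell genes, Prdm1 had 52 to 349, Tnfrsf13b 17 to 65, Irf4 6 to 61 and Pou2af1 3 to 32. The summed level of the 14 plasma cell genes was 424 to 494 CPM in DOX_neg and 406 to 593 CPM in DOX_pos tumours, and most of it came from Xbp1, Txndc5 and Sdc1, which secretory and epithelial cells also express. The 14 B cell genes summed to 26.5 to 47.1 CPM and 27.0 to 32.9 CPM, and the 11 lymph node and follicle genes to 2.12 to 3.23 CPM and 1.50 to 5.86 CPM, the highest value being that of DOX_pos 5. Of the lymph node genes, Ccl19 had 0 counts in every tumour and Ccl21a 0 to 3, and Ltb, a cytokine of lymphocytes, had 50 counts in DOX_pos 5 and 9 to 29 elsewhere. Their part in the immunoglobulin results was not tested.

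No companion list passed a test between the groups. In edgeR's test over all genes, 0 members of any list passed at an adjusted p under 0.05, where 0% of all genes did. An unadjusted p under 0.05 was reached by 16% of all genes. Of the 10 plasma cell genes tested, 6 were higher and 4 lower by their estimates and 0 had an unadjusted p under 0.05, with a median log2 fold change of 0.06, against 0.00 over all genes. Of 5 B cell genes tested, 3 were higher and 2 lower and 1 had an unadjusted p under 0.05 (median 0.05), and 1 lymph node gene was tested (-0.01). Of 7 T cell genes, 1 was higher and 6 lower (median -0.36), and of 10 macrophage genes 8 were higher and 2 lower (median 0.14), and the unadjusted p was under 0.05 for 0 and 3 of them. Exact permutation p-values for the summed levels of the 6 lists ran from 0.183 to 0.833, and from 0.460 to 0.833 after adjustment.

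DOX_neg 4, the tumour with the most immunoglobulin after DOX_pos 5, had the highest values of 3 genes active in lactation, of which Wap and Csn2 were named after their values were seen. Ccl28 had 96 counts (5.56 CPM) in DOX_neg 4 and 0.143 to 0.838 CPM in the other 9 tumours, and Igha was highest there. Wap and Csn2, which encode whey acidic protein and beta casein of milk, were also highest in DOX_neg 4, at 54.9 and 16.1 CPM, against 2.50 to 12.9 and 0 to 4.23 CPM elsewhere. Of the other genes in the mammary epithelium list, Krt8 (280 CPM) and Krt14 (7.64 CPM) were lowest in DOX_neg 4, and Krt5 (3.30 CPM) was lower in DOX_pos 4 alone. Epcam (264 CPM), Cdh1 (238 CPM) and Krt18 (191 CPM) were not lowest in DOX_neg 4. Pigr, the receptor that carries IgA across epithelium, was highest in DOX_pos 5, at 26.3 CPM against 2.72 to 5.22 CPM elsewhere, a ratio of 5.03 to the next tumour (95% interval 4.06 to 6.28). The part of these genes in the level of Igha was not tested.

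Over the 10 tumours, the immunoglobulin sum was also set against 8 measures other than Jchain, and none of the 8 passed after adjustment. Pearson's r was 0.83 (Spearman's rho 0.59) with the macrophage list, 0.82 (0.49) with the lymph node list, 0.82 (0.37) with the IgA transport list and 0.68 (0.41) with the plasma cell list. Their permutation p-values were 0.0101, 0.0174, 0.0338 and 0.0418 for r, or 0.0697, 0.0697, 0.0837 and 0.0837 adjusted, and 0.0795 to 0.296 for rho. Without the 2 tumours farthest from the median of the list, r fell to 0.20, 0.31, 0.10 and 0.01. DOX_pos 5 was left out in all 4 cases, so these relations rested on few tumours. In the IgA transport list Fcgrt, which encodes an Fc receptor of IgG, averaged 9.44 of 15.2 CPM in DOX_neg and 12.3 of 20.5 CPM in DOX_pos tumours. In DOX_pos 5, Pigr was the higher of the 2, at 26.3 against 16.7 CPM. The T cell list (r = 0.58, rho = 0.54, permutation p = 0.0754 and 0.114, r without 2 tumours 0.81) and the B cell list (r = 0.28, rho = 0.61, permutation p = 0.412 and 0.0654, r without 2 tumours 0.56) had larger r without their farthest tumours. Depth (log10 total count) had an r of -0.22 and a rho of -0.16 (permutation p = 0.446 and 0.657), and the ribosomal share had -0.36 and -0.45 (permutation p = 0.322 and 0.191), and without the 2 farthest tumours r was -0.60 and -0.67. The ribosomal share was 24.5% in DOX_pos 5, the lowest of all tumours.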

How the data were processed

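The authors deposited raw read counts by Ensembl gene for whole-tumour RNA depleted of ribosomal RNA, prepared with a directional kit and read single-end at 75 bp, per the labels' protocols. Per the submitters' processing notes, the tools included STAR 2.6.0c, featureCounts and Trimmomatic, and the build was GRCm38. Which annotation release and strand setting were used, and how reads matching several segments were handled, is not given in the sources used here. Of 55335 identifiers, 55154 had a symbol in the name table, and all 361 segments matched GENCODE M21, which supplied coordinates, exon lengths and sequences.

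The members, lists and tests were chosen with earlier results of these data known. Groups and replicate numbers came from the sample titles, and no pair of libraries within a group agreed within counting error (chi-square divided by its degrees of freedom was 6.76 or more). The count test was edgeR 4.0.16 in R 4.3.3 (TMM, filterByExpr with minimum count 10 and total 15, quasi-likelihood test, Benjamini-Hochberg over 16167 genes, threshold 0.05), fitted on 5 against 5 tumours without a block and checked on simulated counts. CPM were counts divided by TMM-scaled library size. Sums were tested as log2(CPM + 1) and shares in percent by two-sided exact permutation tests, adjusted over 7 sums, 9 shares and 6 lists. Correlations used 100000 permutations, adjusted over 8. Intervals are exact Clopper-Pearson at 95%, the floor is 3 counts, and both cover counting error only, since reads carried no molecular identifiers. The uniqueness of 75-base windows was searched over transcripts in exact matches on the same strand.

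Named were all constant genes, the 6 heavy, 6 kappa and 3 lambda variable segments with the highest mean CPM, the leading segment of each tumour, the 5 segments with the smallest edgeR p in each direction, and, in each list, its 3 highest genes and any that passed. Others were named after their values were seen, among them Jchain, Ms4a1, Mzb1, Tnfrsf17, Cd37, Prdm1, Tnfrsf13b, Irf4, Pou2af1, Ccl19, Ccl21a, Csn2, Krt5, Krt14, Krt18 and Wap. Alternatives were DESeq2 1.42.0, other scalings, other low-count filters, a robust fit, a replicate block, a pseudocount of 0.1 and each tumour left out. Added after seeing the data were per-kilobase shares, at least 10 counts in a share's denominator, Simpson's index, sums without Igkv14-111, and correlations without DOX_pos 5. Some genes of the lists are not reported here on their own, and promoter and protein sequences of the segments are not used here.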

Additional observations from a re-analysis of the deposited data

Results flagged for a closer look

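Among 43 values examined in both groups, a tumour stood far from the other 4 of its group in 32 of 86 groups, by Dixon's ratio of the gap to the group's range (above 0.71 for 5 samples). For normally distributed values, chance flags about 1 group in 20. That rate does not hold for values with few counts, where 1 count in 1 tumour alone gives a ratio of 1. Values of such segments are also not independent. In 26 of the 32 the tumour was DOX_pos 5. This tally is no independent support, because variable segments were named by mean CPM or as the leader of a tumour. DOX_pos 5 held 95.6% of the counts of Ighv8-8 and 99.6% of those of Igkv8-27, so flags of such segments largely followed from that choice. The kappa constant sum and Igkc are the same value, entered under both names. Its ratio was 0.882 for the sum of all segments, 0.905 for heavy variable, 0.862 for kappa variable, 0.925 for lambda variable, 0.857 for heavy constant, 0.884 for kappa constant (Igkc, 0.884) and 0.902 for lambda constant segments. It was 0.719 for the lymph node and follicle list, 0.732 for the IgA transport list and 0.889 for the IgG share. Among constant genes it was 0.988 for Ighg1, 0.773 for Ighm, 1 for Ighe, 0.832 for Ighg2b, 0.853 for Ighg2c and 0.854 for Iglc2. Among variable segments it was 0.980 for Ighv8-8, 0.804 for Ighv3-2, 1 for Ighv5-15, 0.815 for Ighv1-66, 1 for Igkv8-27, 0.926 for Igkv3-4, 1 for Igkv5-43, 0.887 for Igkv1-135 and 0.944 for Iglv1.

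In the DOX_neg group, DOX_neg 5 stood apart in the lambda share (0.788), Iglc2 (1) and Iglv1 (1), DOX_neg 4 in Ighv5-17 (1) and Igkv8-27 (1), and DOX_neg 1 in Ighg2c (0.891). Except for Ighg2c with 11 counts and the lambda share, each of these rests on 1 count.

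The joining segments, which lie outside the symbols chosen, had 54 counts in all over 10 of 14 segments. DOX_pos 5 held 41 of them, 20 on Ighj4 and 11 on Igkj1.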

How the results depend on the processing

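Over all genes, edgeR called 0 at an adjusted p under 0.05, DESeq2 called 322 and edgeR with a replicate block called 7. Leaving out single tumours gave 0 to 37 (37 without DOX_neg 3, 2 without DOX_pos 2). Among immunoglobulin segments the count was 0, 1 with DESeq2, and 0 to 1 without single tumours. Igkv14-111 kept its direction in every setting run, with log2 fold changes of -1.79 to -1.43 and edgeR adjusted p of 0.0430 to 0.344 without single tumours, and -1.63 with DESeq2. A filter of 1 CPM in 5 libraries kept 2 of the segments and gave no value for it. The replicate numbers are shared between groups, and the labels name no pairing. The correlation of same-numbered tumours, each taken as its deviation from its group mean, was 0.0568 to 0.320, and replicate 5 lay under 0.1. Of the 5 tumours, 2 matched their own number best, and these values do not settle whether the numbers mark a shared block. Under the pairing, 7 genes and no immunoglobulin segment were called.

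Without single tumours the difference of the groups (log2) ran from -0.80 to 0.58 for all segments, -0.32 to 0.66 for heavy variable, -0.77 to 0.25 for kappa variable, -0.013 to 0.22 for lambda variable, -0.63 to 0.67 for heavy constant and -0.70 to 0.57 for kappa constant sums. It ran from -0.049 to 0.087 for the plasma cell, -0.33 to 0.030 for the lymph node and -0.041 to 0.39 for the IgA transport list. The shares ran from -11.3 to 4.85 percentage points for IgA, -11.5 to 4.99 for IgM, -4.94 to 15.0 for IgG, -9.68 to 1.69 for the highest and -9.49 to 2.57 for the 5 highest kappa segments. The correlations ran from 0.46 to 0.91 for macrophage genes (adjusted p = 0.00992 by permutation without DOX_neg 1) and -0.67 to 0.025 for the ribosomal share. Log2 fold changes ran from -1.71 to 2.64 for Igkc, -1.31 to 0.39 for Igha and -0.45 to 1.40 for Ighm. With the replicate block they were 0.11, -0.15 and 0.38, and -1.54 for Igkv14-111, with edgeR adjusted p of 0.973, 0.939, 0.748 and 0.185. The kappa variable sum differed by 0.33 without Igkv14-111. Among segments with at least 10 counts over all tumours, the highest heavy segment's share differed by -7.10 points and the 5 highest kappa segments' share by 1.18. Only 5 heavy variable segments reached 10 counts, and DOX_pos 5 held 50% to 100% of the counts of each. In the other tumours the filtered heavy share therefore rests on few counts. The cause of these differences was not tested. The other values kept their direction and their side of the threshold in the alternatives run. With 35 to 479 immunoglobulin counts in 9 tumours, depth limits what variable segments can show.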

Other observations

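Genes of antibody maturation and of B cell development gave values of their own. Bcl6, a transcription factor of germinal centre B cells that other cells also express, was at 38.2 CPM in DOX_pos 5 and 7.07 to 19.7 CPM in the other tumours. Of the 6 genes in that list 5 were tested, 2 were higher and 3 lower by their estimates, 3 had an unadjusted p under 0.05 (16% of all genes did) and 0 passed edgeR's adjusted test. DESeq2 called 1 of them, S1pr2, a sphingosine phosphate receptor of germinal centre B cells and other cells, by 0.36 on the log2 scale (DESeq2 adjusted p = 0.0281). The recombinase genes Rag1 and Rag2 and the surrogate light chain gene Vpreb2 had 0 counts in every tumour, while Vpreb1 had 39 counts over all tumours, and none of the 6 pre-B genes passed the low-count filter.

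Of 7 mammary epithelium genes tested, 6 were higher and 1, Wap, lower by their estimates, 2 had an unadjusted p under 0.05 (16% of all genes did) and 0 passed the adjusted edgeR test (median log2 fold change 0.23). Krt5 and Krt14, keratins of basal cells, were highest in DOX_pos 5, at 194 and 124 CPM, against 1.22 to 65.5 and 7.64 to 94.4 CPM in the other tumours. Of the 2 genes of the IgA transport list tested, Fcgrt and Pigr, both were higher by their estimates (median 0.64). Fcgrt, which encodes an Fc receptor of IgG, had an unadjusted edgeR p of 0.0368, and Pigr had 0.178. So 1 of the 2 was under 0.05, against the same 16% of all genes.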
